A study of Mus musculus with 8 samples.

Results

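The transcripts of 10 integrin subunit genes of epithelial cells were followed in RNA from mouse kidney, labelled IMCD, the inner medullary collecting duct. The genes were taken by name: the alpha subunits Itga2, Itga3, Itga5, Itga6 and Itgav, and the beta subunits Itgb1, Itgb4, Itgb5, Itgb6 and Itgb8. All 10 were found, each under 1 gene identifier, among 77981 genes of the deposited table, and all 10 passed the filter of a mean of at least 1 TPM, which left 19043 genes. TPM is a transcript level scaled for transcript length and for the library total, so levels of different genes can be set side by side.

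In the genotype AVP-flox, loxP sites lie in the first intron and beyond the 3′ end of Avp, the gene of vasopressin, and the genotype AVP-flox;Cre adds a Cre recombinase to this allele. All 8 libraries, 4 of each genotype, carry the treatment label tamoxifen, a drug that turns on inducible forms of Cre, so the floxed allele and the drug are shared by both groups. The promoter that drives Cre, the dose and timing of tamoxifen and the ages were not given in the sources used here, and a control with Cre alone was not part of the design. Separate animals are not named for the replicates, and if some share an animal the p-values cover no more than the spread of these libraries, which may be technical.

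Integrins are receptors made of 1 alpha and 1 beta subunit that span the cell membrane and tie the extracellular matrix to the cytoskeleton. The partner decides the ligand: Itgb1 joins many alpha subunits to bind collagen, laminin or fibronectin, Itgb4 joins Itga6 to hold keratin-linked hemidesmosomes on laminin, and Itgb5, Itgb6 and Itgb8 each pair with Itgav to bind ligands that carry an RGD motif, among them vitronectin and latent TGF-beta. In the collecting duct, integrins hold the epithelium on its basement membrane, and beta 1 integrins are needed for the duct to form and keep its shape. Subunits must meet their partner before they leave the endoplasmic reticulum, so transcript levels do not give the number of receptors at the surface.

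Collecting duct markers were abundant in every library. Aqp2, the vasopressin-regulated water channel of this segment, ranged from 14915 to 18131 TPM over the AVP-flox libraries and from 5443 to 7036 TPM over the others, while Avp, which is made in the brain, ranged over 0 to 0.24 and 0 to 0.27 TPM and checks nothing here. The summed level of 14 principal and IMCD cell markers, Aqp2 among them, was 22115 to 26574 and 14655 to 16992 TPM. On average Aqp2 alone fell by more TPM than this sum, so the sum does not show a fall of the other markers. The sums for other cells were 245 to 378 and 370 to 490.1 TPM for 11 intercalated cell markers, 1797 to 2820.2 and 5012 to 5762 TPM for 9 markers of papillary surface and urothelium, 48.95 to 735 and 106 to 262 TPM for 12 proximal tubule markers, and 951 to 2806 and 1366 to 1602 TPM for 7 thick limb and distal markers. A sum of 6 thin limb markers ran from 14997 to 18876 and from 8974 to 10532 TPM, but Cryab and Slc14a2 in it are also abundant in IMCD. Fewer genes were detected in AVP-flox;Cre 2 (33576 above 0 TPM) than elsewhere (50951 to 58232). By Xist and Y-linked genes, AVP-flox 1 and AVP-flox;Cre 1 and 2 were male and the other 5 libraries female.

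Promoter windows of 4 genes are shown because these genes are described most fully below: Itgb1, Itgb5 and Itga5 changed, and Itgb6 lay near the threshold. They come from RefSeq on the build GRCm38.p6, while the build behind the deposited table was not given in the sources used here, and run from 250 bases before to 50 after the annotated start. Itgb5 (chr16:33829415-33829714, plus strand) and Itgb1 (chr8:128685404-128685703, plus strand) were lower in AVP-flox;Cre, Itga5 (chr15:103366742-103367041, minus strand) was higher, and Itgb6 (chr2:60722554-60722853, minus strand, the upstream of its 2 annotated starts) has the lowest GC content of the 4. Capitals mark each GC box, written GGGCGG or CCGCCC on the other strand, with overlapping matches each counted.
Itgb5: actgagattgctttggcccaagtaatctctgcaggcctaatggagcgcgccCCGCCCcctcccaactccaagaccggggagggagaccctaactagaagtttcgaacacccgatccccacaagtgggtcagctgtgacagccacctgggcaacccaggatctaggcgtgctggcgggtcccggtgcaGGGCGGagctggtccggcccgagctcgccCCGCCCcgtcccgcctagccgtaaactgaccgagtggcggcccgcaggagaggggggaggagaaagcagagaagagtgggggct
Itgb1: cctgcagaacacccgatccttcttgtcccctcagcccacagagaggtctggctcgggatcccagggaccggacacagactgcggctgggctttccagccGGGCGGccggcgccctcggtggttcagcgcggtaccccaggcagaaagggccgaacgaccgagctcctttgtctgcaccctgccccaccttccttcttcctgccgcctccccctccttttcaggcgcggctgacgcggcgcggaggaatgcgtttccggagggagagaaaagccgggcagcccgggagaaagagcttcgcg
Itga5: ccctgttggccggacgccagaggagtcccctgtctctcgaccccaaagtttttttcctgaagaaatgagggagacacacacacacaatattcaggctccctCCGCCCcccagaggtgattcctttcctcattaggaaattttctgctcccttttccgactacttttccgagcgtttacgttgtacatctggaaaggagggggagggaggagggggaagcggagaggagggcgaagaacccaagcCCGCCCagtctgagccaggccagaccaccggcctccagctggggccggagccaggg
Itgb6: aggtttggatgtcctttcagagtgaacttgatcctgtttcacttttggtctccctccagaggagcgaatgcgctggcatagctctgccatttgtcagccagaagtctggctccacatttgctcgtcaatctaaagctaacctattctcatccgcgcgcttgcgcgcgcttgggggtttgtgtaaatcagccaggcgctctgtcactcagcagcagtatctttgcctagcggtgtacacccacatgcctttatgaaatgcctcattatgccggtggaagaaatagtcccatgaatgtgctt

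Windows were found for 8 of the 10 genes, and Itga6 and Itgb4 had none. GC content was 65.7% for Itgb5, 67.3% for Itgb1 and for Itgav, 66.7% for the upstream start of Itga3, 60.7% for Itgb8, 59.3% for Itga2, 58.7% for Itga5 and 50.3% for the upstream start of Itgb6. The downstream starts of Itga3 and Itgb6 were at 52.3% and 38.3%. The median over 32841 windows of 300 bases was 52.7%. Itgb5 and the upstream start of Itga3 held 3 GC boxes, Itga5 held 2, Itga2, Itgav and Itgb1 held 1, and Itgb6 and Itgb8 held 0, where 35.7% of all windows hold at least 1. A full cAMP response element (TGACGTCA) stood in 0 of the 10 member windows and in 1.79% of all windows, and a TATA box (TATAAA, both strands) in 0 and in 13.6%. A match of letters is a description of the window and not a binding site.

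In AVP-flox, Itgb1 was the most abundant of the 10 and higher than 98.6% of tested genes, and Itgb5 and Itga3 followed above 96.5% and 95.7%. The ranges of Itgb5 (155 to 289 TPM) and Itga3 (185 to 265 TPM) overlapped, while Itgb1 stood clear of both at 483 to 527 TPM. Itgav came next at 73.5 to 94.3 TPM, then Itgb6 at 42.4 to 63.3 TPM, each without overlap with its neighbours in the order. Itgb4, Itga2, Itga5 and Itga6 lay together between 12.6 and 22.8 TPM, and neighbours among these 4 overlapped. Itgb8, at 0.59 to 1.62 TPM, was higher than only 6.82% of tested genes and sits at the edge of the filter. The order in AVP-flox;Cre differed in that Itga3 stood above Itgb5 and Itga5 led the group of 4 low genes, with Itgb4 last of them.

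**Figure D1:**
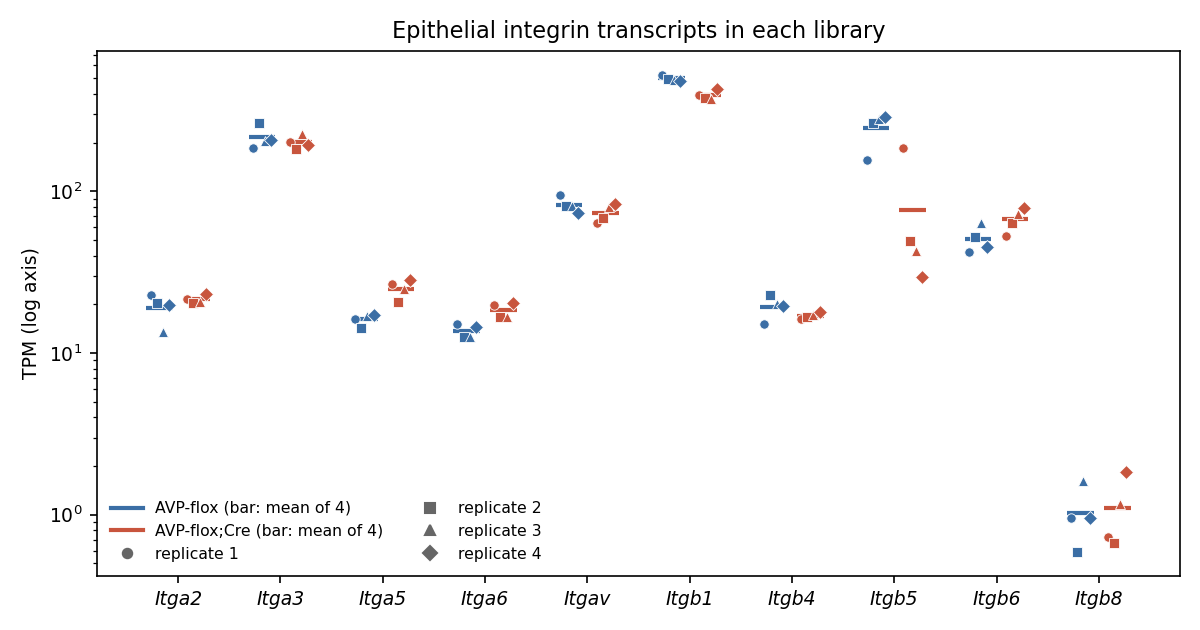
TPM of the 10 integrin genes on a log axis, with 1 marker shape per replicate number and a bar at the mean of the 4 libraries of each group. Itgb5 falls to 29.5 to 49.1 TPM in AVP-flox;Cre 2 to 4 but stands at 186 TPM in AVP-flox;Cre 1, while the groups of Itgb1 (lower), Itga5 and Itga6 (higher) are fully apart.

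The comparison of the genotypes asks how collecting duct transcripts differ once Avp can be deleted. In limma with Benjamini-Hochberg adjustment over all 19043 genes, 2 integrin genes rose (Itga5 and Itga6), 2 fell (Itgb1 and Itgb5) and 6 did not pass the threshold of 0.05. That is 4 of 10, where 27.3% of all tested genes passed, 13.1% higher and 14.2% lower. The median log2 fold change of the 10 was -0.03, against -0.01 over all tested genes. The groups did not overlap for 3 of the 10 (Itga5, Itga6 and Itgb1), 2 higher and 1 lower, against 29.5% of tested genes, 14.7% higher and 14.9% lower. Log2 fold changes are of TPM + 1, AVP-flox;Cre minus AVP-flox, with their standard error (SE), and the + 1 understates changes of low genes.

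**Figure D2:**
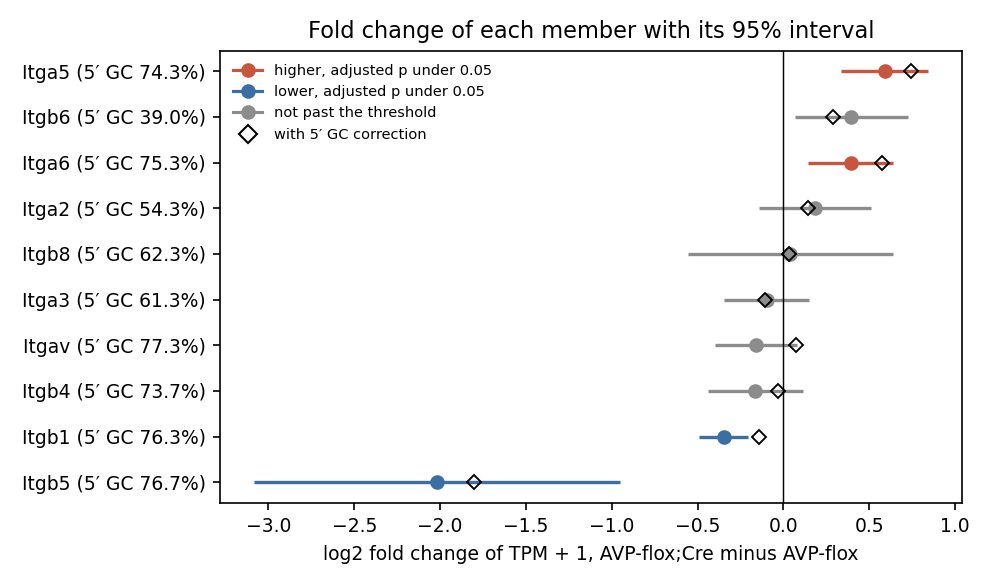
Log2 fold change of TPM + 1 with its 95% interval for each integrin gene, ordered by size and coloured by call, with the value after the 5′ GC correction as an open diamond. Itgb5 has the largest change and the widest interval, from -3.08 to -0.95, and the diamond of Itgb1, at -0.14, lies outside its uncorrected interval.

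Itgb1 (ENSMUSG00000025809), the shared partner of Itga2, Itga3, Itga5, Itga6 and Itgav, fell by a modest amount in every library. It stood at 527, 496, 490.5 and 483 TPM in AVP-flox 1 to 4 and at 394, 377, 371 and 426 TPM in AVP-flox;Cre 1 to 4. All 4 AVP-flox;Cre libraries were below all 4 AVP-flox libraries, with means of 392 ± 24.7 against 499 ± 19.1 TPM (SD, n = 4 per group). The log2 fold change was -0.35 (SE 0.06, limma adjusted p = 0.00327), a fall of 1.27-fold, and the exact permutation test of the mean gave two-sided p = 0.0286, the smallest that 4 against 4 allows. The call ended when each library was corrected for its trend with 5′ GC content, where the log2 fold change was -0.14 (limma adjusted p = 0.298). The first 300 nt of its longest annotated transcript hold 76.3% GC.

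Of the alpha subunits that join Itgb1, Itga5 and Itga6 rose while Itga2 and Itga3 did not pass. Itga5 (ENSMUSG00000000555), the alpha chain of the fibronectin receptor, stood at 16.25, 14.35, 17.0 and 17.2 TPM in AVP-flox 1 to 4 and at 26.6, 20.5, 24.8 and 28.1 TPM in AVP-flox;Cre 1 to 4. Every AVP-flox;Cre library was above every AVP-flox library. It rose 1.54-fold, with a log2 fold change of 0.59 (SE 0.11, limma adjusted p = 0.00426), and remained past the threshold in all 24 alternatives (0.50 to 0.75). Relative to Itga3 in the same library, Itga5 was at 0.0542 to 0.0878 in AVP-flox and 0.110 to 0.144 in AVP-flox;Cre, again without overlap.

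Itga6 (ENSMUSG00000027111), which binds laminin with either Itgb1 or Itgb4, stood at 15.2, 12.6, 12.6 and 14.4 TPM in AVP-flox 1 to 4. In AVP-flox;Cre 1 to 4 it stood at 19.7, 16.6, 16.6 and 20.4 TPM, above every AVP-flox value. It rose 1.34-fold (log2 fold change 0.39, SE 0.11, limma adjusted p = 0.0256). With fewer libraries it did not always pass: without AVP-flox 2 or 3, or AVP-flox;Cre 1 or 4, the adjusted p was 0.0645, 0.0727, 0.0663 and 0.0634, with the log2 fold change at 0.34 to 0.44 whichever library was left out, and with no filter it was 0.0966. With the 5′ GC correction the log2 fold change was 0.57 (limma adjusted p = 0.0053).

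Itga3 (ENSMUSG00000001507), a laminin receptor chain and the most abundant alpha gene here, did not pass. It stood at 185, 265, 205 and 207 TPM in AVP-flox 1 to 4 and at 201, 181, 225 and 195 TPM in AVP-flox;Cre 1 to 4, with the second group inside the range of the first except for AVP-flox;Cre 2. Its log2 fold change was -0.10, with a 95% interval from -0.34 to 0.15 (limma adjusted p = 0.57). Itga2 (ENSMUSG00000015533), a collagen receptor chain, stood at 22.7, 20.35, 13.5 and 19.8 TPM against 21.7, 20.4, 20.7 and 23.2 TPM. Its groups overlapped through AVP-flox 1 alone, and its log2 fold change was 0.19 (95% interval -0.14 to 0.51, limma adjusted p = 0.387).

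Itgb4 (ENSMUSG00000020758), the hemidesmosome subunit that pairs only with Itga6, stood at 15.0, 22.8, 20.03 and 19.65 TPM in AVP-flox and at 16.3, 16.6, 17.2 and 17.98 TPM in AVP-flox;Cre. Here too only AVP-flox 1 overlapped the other group, and the log2 fold change was -0.16 (95% interval -0.44 to 0.11, limma adjusted p = 0.369). The ratio of Itga6 to Itgb4 averaged 0.733 ± 0.201 over the AVP-flox libraries and 1.08 ± 0.115 over the AVP-flox;Cre libraries (SD, n = 4 per group), with AVP-flox 1, at 1.01, inside the range of AVP-flox;Cre (0.967 to 1.21).

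Itgb5 (ENSMUSG00000022817), which pairs with Itgav to bind vitronectin, had the largest change of the 10 and the least even one. It stood at 155, 263, 282 and 289 TPM in AVP-flox 1 to 4. In AVP-flox;Cre it was at 186 TPM in library 1, inside the AVP-flox range, and at 49.1, 42.9 and 29.5 TPM in libraries 2 to 4. Mean levels were 77.0 ± 73.4 against 247 ± 62.5 TPM (SD, n = 4 per group), a fall of 3.21-fold. The log2 fold change was -2.02 (SE 0.48, 95% interval -3.08 to -0.95, limma adjusted p = 0.0119), while the exact permutation test of the mean gave two-sided p = 0.0571.

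The size of the Itgb5 change depended on which libraries were kept. With any single library left out it still passed (limma adjusted p up to 0.0352). Without AVP-flox;Cre 1 the log2 fold change was -2.57 (limma adjusted p = 0.000176), and leaving out any other library gave -1.70 to -2.23. Without AVP-flox 2 together with AVP-flox;Cre 2 and 4 it was -1.37 and no longer passed (limma adjusted p = 0.175). Among male libraries Itgb5 was at 155 TPM in AVP-flox 1 and at 186 and 49.1 TPM in AVP-flox;Cre 1 and 2, and among female libraries at 263 to 289 against 42.9 and 29.5 TPM. With sex as a covariate the log2 fold change was -2.13 (limma adjusted p = 0.0141).

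Gene levels moved with GC content near the 5′ end in AVP-flox;Cre 2 to 4, and less in AVP-flox;Cre 1. Among 1536 genes with over 70 to 80% GC in the first 300 nt and a mean of at least 10 TPM in AVP-flox, the median deviation from the AVP-flox mean was -0.06 in AVP-flox;Cre 1 and -0.21, -0.13 and -0.15 in AVP-flox;Cre 2 to 4, against -0.02 to 0.04 in the AVP-flox libraries. In that bin 11.2% of genes were higher and 29.3% lower. With the same cut of 10 TPM, 15.8% were higher and 21.8% lower in the bin of over 60 to 70%. At most 50% GC, 17.8% were lower. The shares over all tested genes include genes under this cut. AVP-flox;Cre 1 was also at -0.06 in the bin of at most 50% GC, where AVP-flox;Cre 2 to 4 were at -0.07, -0.03 and 0.03. Itgb5, at 76.7% GC, belongs to the bin of over 70 to 80%, as do Itgav (77.3%), Itgb1 (76.3%), Itga6 (75.3%), Itga5 (74.3%) and Itgb4 (73.7%). Of these 6, 2 rose, 2 fell and 2 did not pass, beside 11.2% higher and 29.3% lower over the whole bin. Outside it stand Itgb8 (62.3%), Itga3 (61.3%), Itga2 (54.3%) and Itgb6 (39.0%). With the 5′ GC correction Itgb5 was at -1.80 (limma adjusted p = 0.0128), against -2.02 without it. Whether GC content acts on Itgb5 beyond this shared trend was not tested.

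**Figure D3:**
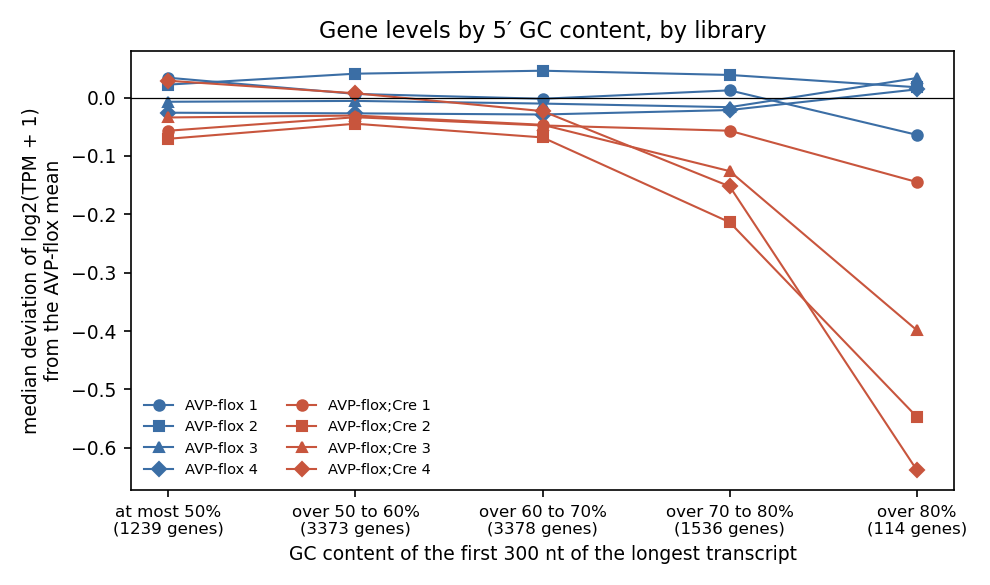
Median deviation of log2(TPM + 1) from the AVP-flox mean, by bin of 5′ GC content, with 1 line per library. The lines of AVP-flox;Cre 2 to 4 bend down above 70% GC and reach -0.40 to -0.64 above 80%, AVP-flox;Cre 1 reaches -0.14, and the AVP-flox lines stay between -0.06 and 0.05.

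Itgav (ENSMUSG00000027087), the alpha chain shared by Itgb5, Itgb6 and Itgb8, did not pass. It stood at 94.3, 80.8, 81.0 and 73.5 TPM in AVP-flox 1 to 4 and at 63.2, 68.65, 80.25 and 83.5 TPM in AVP-flox;Cre 1 to 4, with a log2 fold change of -0.16 (95% interval -0.40 to 0.08, limma adjusted p = 0.314). Its direction turned with the 5′ GC correction (0.08). Its ratio to the summed Itgb5, Itgb6 and Itgb8 was 0.475 in AVP-flox 1, 0.219 to 0.256 in AVP-flox 2 to 4, 0.263 in AVP-flox;Cre 1 and 0.605 to 0.761 in AVP-flox;Cre 2 to 4. The beta partners thus exceeded Itgav in every library.

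Itgb6 (ENSMUSG00000026971), an epithelial subunit that with Itgav binds and activates latent TGF-beta, was at 42.4, 51.85, 63.3 and 45.3 TPM in AVP-flox. In AVP-flox;Cre it was at 53.1, 63.7, 72.6 and 78.4 TPM, and the groups overlapped only through AVP-flox 3 and AVP-flox;Cre 1. The log2 fold change was 0.40 (SE 0.15, 95% interval 0.07 to 0.73), which did not pass (limma adjusted p = 0.0738, exact permutation p = 0.0571). It passed in 4 of 24 alternatives: with a replicate block (limma adjusted p = 0.0433), with sex as a covariate (0.0148), without AVP-flox 3 (0.0317) and without AVP-flox;Cre 1 (0.0306). Over all alternatives the adjusted p ran from 0.0148 to 0.34. The ratio of Itgb6 to Itgb5 was 0.157 to 0.273 in AVP-flox, 0.285 in AVP-flox;Cre 1 and 1.30, 1.69 and 2.66 in AVP-flox;Cre 2 to 4.

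Itgb8 (ENSMUSG00000025321), the third Itgav partner and another activator of latent TGF-beta, was listed at 0.95, 0.59, 1.62 and 0.96 TPM in AVP-flox and at 0.73, 0.67, 1.17 and 1.84 TPM in AVP-flox;Cre. Its log2 fold change was 0.04, and the 95% interval of -0.56 to 0.64 covers changes of either sign. Spread within a group was 3.83% of the mean for Itgb1 and 41.7% for Itgb8 in AVP-flox, and 95.4% for Itgb5 in AVP-flox;Cre against 4.36% for Itgb4.

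In AVP-flox;Cre 2 to 4 the makeup of the beta transcripts shifted more than that of the alpha transcripts. The 5 beta genes summed to 740 to 857 TPM in AVP-flox and 505 to 651 TPM in AVP-flox;Cre, without overlap, while the 5 alpha genes summed to 329 to 393 and 307 to 367 TPM. Itgb5 made up 21.0, 31.6, 32.9 and 34.5% of the beta sum in AVP-flox 1 to 4, 28.6% in AVP-flox;Cre 1 and 9.69, 8.49 and 5.33% in AVP-flox;Cre 2 to 4. Itgb6 made up 5.41 to 7.39% against 8.16 to 14.4%, and Itgb1 57.2 to 71.2% against 60.6 to 76.9%. A smaller Itgb5 part raises the other shares, so these do not follow the levels: Itgb1 itself fell, and Itgb6 did not pass. Sums and shares were not corrected for 5′ GC content. Among alpha genes, Itga5 was the only one whose share did not overlap, at 3.65 to 5.17% against 6.68 to 8.03%. Itga3 held 55.5 to 67.4% and 55.6 to 61.2%. These shares are descriptions and were not tested.

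**Figure D4:**
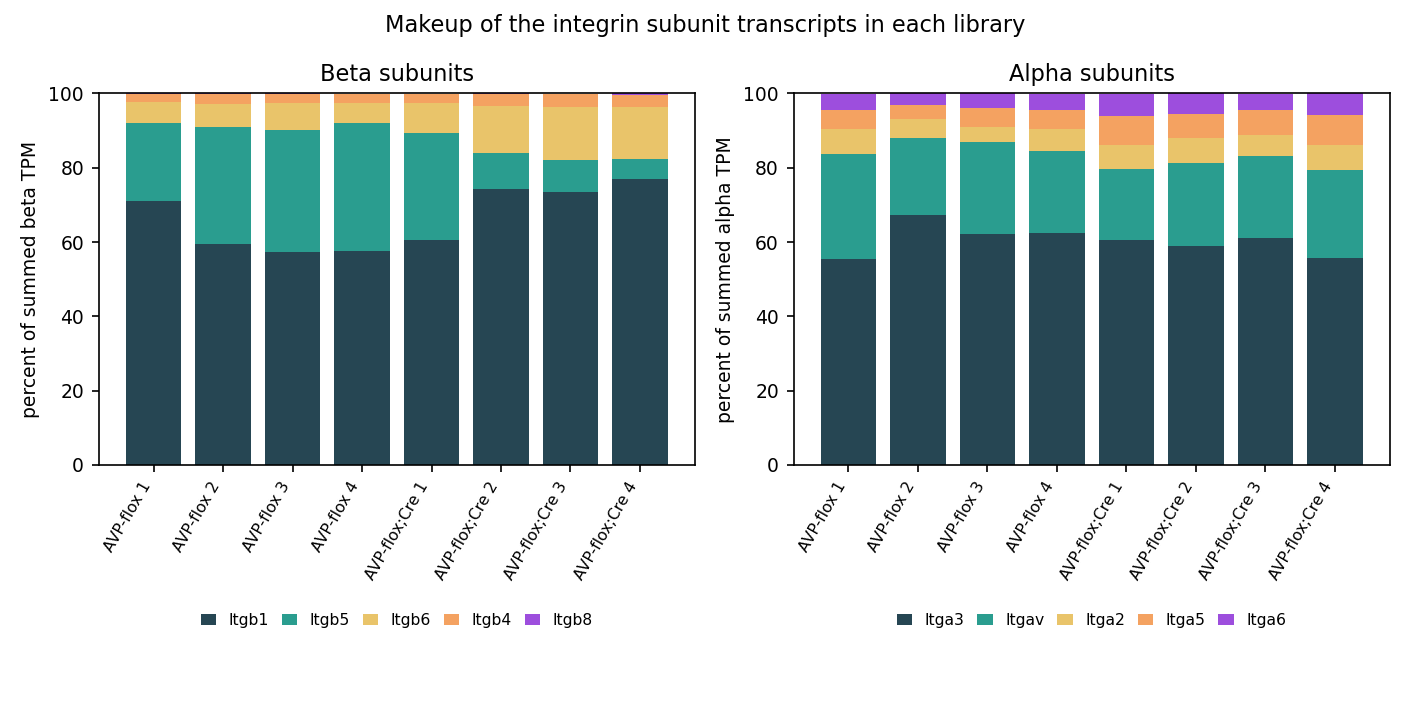
Share of each subunit in the summed TPM of the 5 beta genes (left) and the 5 alpha genes (right) in each library, with bars adding to 100%. The Itgb5 share shrinks from 21.0 to 34.5% in AVP-flox to 5.33 to 9.69% in AVP-flox;Cre 2 to 4, and AVP-flox;Cre 1, at 28.6%, resembles AVP-flox.

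Of 16 other integrin subunit genes, 8 passed the filter, and of these 1 rose, 1 fell and 6 did not pass. That is 12.5% in each direction, beside 13.1% higher and 14.2% lower over all tested genes. Itga8, a partner of Itgb1 known from mesangial and interstitial cells, rose from 34.0, 32.5, 42.5 and 33.6 TPM to 52.6, 49.3, 52.1 and 76.9 TPM (log2 fold change 0.66, SE 0.14, limma adjusted p = 0.00807). Itgb3, the other vitronectin receptor subunit that pairs with Itgav, fell from 4.07, 4.71, 4.53 and 2.14 to 1.81, 0.72, 1.22 and 2.36 TPM (log2 fold change -0.95, SE 0.27, limma adjusted p = 0.0277). The groups overlapped for Itgb3, and its call ended in 9 alternatives, among them the replicate block, no filter and the loss of AVP-flox 1, 2 or 3 or AVP-flox;Cre 2 or 3 (adjusted p up to 0.128). Itga2b, known as the platelet alpha chain, was at 38.9 to 74.3 TPM over all 8 libraries, while the platelet genes Pf4, Ppbp, Gp9, Gp1ba and Gp1bb, looked up after that level was seen, were at 2.18 to 6.61, 0.60 to 1.99, 0.04 to 1.52, 0.12 to 0.79 and 0 to 0.43 TPM. Itga1, a collagen receptor chain, was at 21.9 ± 2.15 and 22.5 ± 4.40 TPM (SD, n = 4), and Itga2b (-0.28), Itga7 (0.46), Itga9 (-0.48), Itgb2 (0.36) and Itgb7 (-0.24) did not pass. The other 8, which include Itga4 and the leukocyte chains Itgal, Itgam, Itgax and Itgad, had means under 1 TPM.

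Markers of several other cell types differed between the groups as well. The summed level of 12 fibroblast, pericyte and smooth muscle markers ran from 146 to 200 TPM over the AVP-flox libraries and from 299 to 372 TPM over the others. Of 11 tested, 5 were higher (Col1a2, 1.33, and Pdgfra, 1.06, among them) and 0 lower. The shares to set beside each list here are 13.1% higher and 14.2% lower, over all tested genes. Of the 12 markers, Lum was under 1 TPM and Col1a1 at 1.23 and 1.04 TPM on average. The 10 endothelial markers summed to 2545 to 2621 and 2171 to 2278 TPM, with 4 higher (Tie1, 1.05) and 2 lower (Emcn, -0.96), and the 13 leukocyte markers to 152 to 243 and 175 to 293 TPM, with 1 of 9 tested higher (Csf1r, 1.10). In bulk RNA, fewer cells of a type and less RNA per cell cannot be told apart, and the part of these cells in the integrin results was not tested. Of other cell markers, 5 of 9 tested rose and 0 fell for intercalated cells (Slc4a9, 1.65, and Kit, 0.86), 6 rose and 1 fell of 8 for papillary surface and urothelium (Upk1a, 1.65, and Psca, 1.25), and 0 of 10 passed in limma for proximal tubule (0 with an unadjusted p under 0.05). For thick limb and distal tubule 2 of 6 rose (Cldn16, 0.69, and Cldn10, 0.27) and 4 did not pass, with the list's median at -0.45, and the call of Cldn10 ended in 12 of 24 alternatives (adjusted p up to 0.243). For thin limb 4 rose and 1 fell of 6 (the 1 that fell is Cryab, -1.13). The median of that list was 0.36, so its lower summed level does not stand for most of its genes. For principal and IMCD cells 5 rose and 4 fell of 14 (Scnn1b, 1.28, and Aqp2, -1.35), with a median of 0.19.

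Basement membrane ligands of these receptors were mostly higher. Of 19 tested laminin, collagen IV, nidogen and perlecan genes, 10 rose (52.6%), 1 fell (5.26%) and 8 were not past the threshold. Over all tested genes 13.1% were higher and 14.2% lower. The median was 0.64, against -0.01 over all tested genes. The collagen IV chains Col4a6, Col4a5 and Col4a2 rose by 0.95, 0.68 and 0.66 on the log2 scale (limma adjusted p = 0.000184, 0.000473 and 0.000609), Col4a5 from 71.8 ± 7.20 to 116 ± 8.37 TPM (SD, n = 4). Lama5, the laminin alpha chain of mature tubular basement membrane, rose from 129.6 ± 14.2 to 203 ± 32.5 TPM (0.64, limma adjusted p = 0.0032). Lamb3, the beta chain of the laminin that Itga6 with Itgb4 binds, was the 1 gene that fell, from 144, 171, 144 and 145 TPM to 61.1, 66.2, 59.7 and 66.8 TPM (-1.24, SE 0.08, limma adjusted p = 1.57e-05), and its groups were far apart. Lama3, the alpha chain of that laminin, did not pass, at 5.91 ± 1.47 and 5.22 ± 1.39 TPM (SD, n = 4). Lamb2 (0.11), Col4a1 (0.22) and Col4a4 (0.21) did not pass either.

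The list of RGD ligands, TGF-beta genes and carriers of latent TGF-beta had 11 of 18 tested genes higher (61.1%), 0 lower and 7 not past. Not all of these genes code for ligands of Itgav receptors. The shares over all tested genes were 13.1% higher and 14.2% lower. The median of the list was 0.53. In limma 0 genes of this list fell at an unadjusted p under 0.05 as well. Spp1 (osteopontin) rose from 3256, 4047, 4231 and 3959 TPM to 5929, 5673, 5284 and 6224 TPM (0.58, SE 0.09, limma adjusted p = 0.00163), and the call ended with the replicate block and the 5′ GC correction together (adjusted p = 0.063). Mfge8, a secreted glycoprotein bound by Itgav with Itgb5, rose from 201 ± 12.5 to 276 ± 12.4 TPM (SD, n = 4; limma adjusted p = 0.00092). Tgfb2 and Tgfb3 rose 3.30-fold and 2.18-fold from low levels of 2.61 and 3.83 TPM (limma adjusted p = 0.000386 and 0.00261), while Tgfb1 was at 2.17 and 2.18 TPM. Ltbp1, which anchors latent TGF-beta in the matrix, rose from 114 ± 14.8 to 192 ± 36.6 TPM (SD, n = 4; limma adjusted p = 0.00369). Npnt, the ligand of Itga8 with Itgb1, rose from 191 ± 37.8 to 253 ± 8.24 TPM (SD, n = 4; limma adjusted p = 0.0329), a call that ended in 9 alternatives, among them the loss of AVP-flox 3 or of any 1 AVP-flox;Cre library (adjusted p up to 0.102). Fn1, the ligand of Itga5, was low at 1.54 ± 0.457 and 2.66 ± 0.852 TPM (SD, n = 4) and did not pass, like Thbs1 (0.05), Lrrc32 (-0.20) and Egfl6 (-0.18).

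Of 16 genes that switch integrins on or off 4 rose (25%), 3 fell (18.75%) and 9 did not pass, beside 13.1% higher and 14.2% lower over all tested genes, and the median was 0.22. Flna, filamin A, an actin crosslinker that competes with talin for beta tails, rose 2.35-fold from 55.2, 58.8, 58.0 and 60.6 TPM to 143, 131, 136 and 137 TPM (log2 fold change 1.22, SE 0.06, limma adjusted p = 5.72e-06). Fermt2 (kindlin-2 gene) and Tln1 (talin), which bind beta tails to activate them, rose by 0.26 and 0.30 (limma adjusted p = 0.0126 and 0.0242). Both calls ended with median-of-ratios scaling, with no filter and with the same 3 libraries left out, and that of Tln1 also without AVP-flox 1 or 3 or AVP-flox;Cre 3 or 4. Itgb1bp1, which holds Itgb1 inactive, fell from 56.4 ± 3.30 to 44.2 ± 4.2 TPM (SD, n = 4; limma adjusted p = 0.0145), and the adaptor Dok1 fell by 0.56 (limma adjusted p = 0.00948). Neither passed without AVP-flox 2 together with AVP-flox;Cre 2 and 4 (adjusted p up to 0.133 and 0.113 over the alternatives). Rapgef1, an exchange factor for Rap1, fell by 0.44 (limma adjusted p = 0.00724) but was at -0.15 with the 5′ GC correction (adjusted p = 0.333). Tns1 (-0.09), Rap1b (0.22) and Fermt1 (0.23) did not pass.

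**Figure D5:**
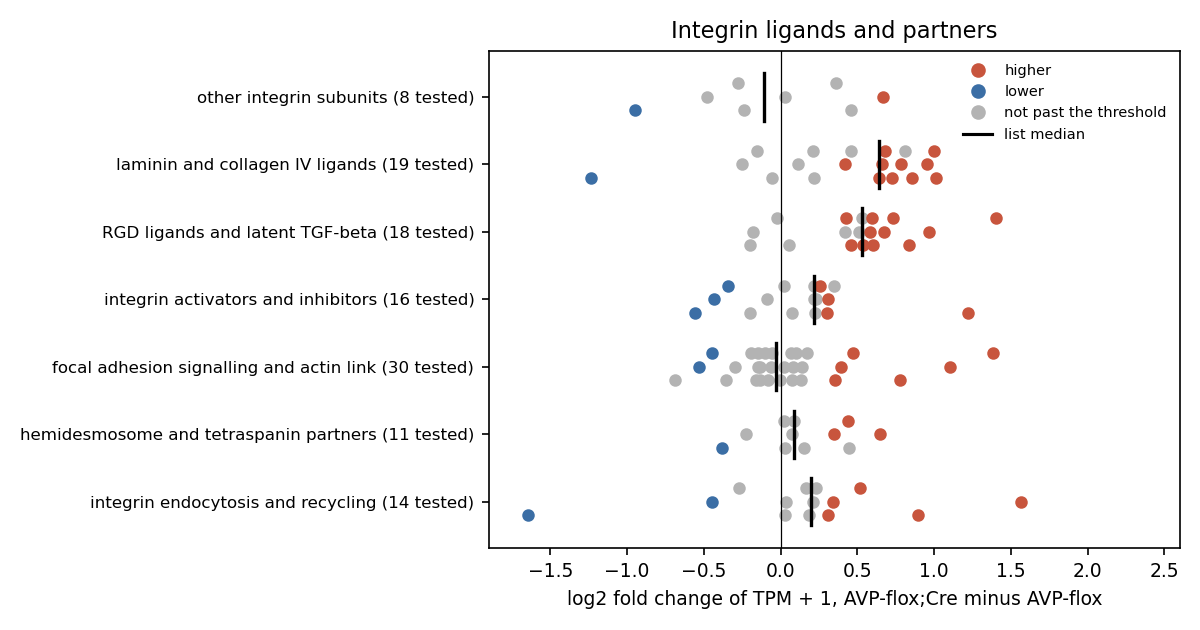
Log2 fold change of TPM + 1 of each tested gene in 7 lists of other integrin subunits, ligands and partners, coloured by call, with a bar at the median of each list. The laminin and collagen IV list and the RGD and TGF-beta list have medians of 0.64 and 0.53, and the other 5 lie between -0.11 and 0.22.

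Of 30 tested genes of the focal adhesion scaffold 6 rose (20%), 2 fell (6.67%) and 22 did not pass, beside 13.1% higher and 14.2% lower over all tested genes, and the median was -0.03. Ptk2b, a calcium-sensitive relative of focal adhesion kinase, rose from 12.4 ± 1.85 to 27.6 ± 3.18 TPM (SD, n = 4; log2 fold change 1.10, limma adjusted p = 0.000277), while the kinase gene Ptk2 itself was at 53.2 ± 3.52 and 55.9 ± 5.86 TPM (0.07, not past). Tgfb1i1, a paxillin relative known as Hic-5, rose from 10.04 ± 2.53 to 27.5 ± 4.23 TPM (SD, n = 4; limma adjusted p = 0.000406), and Lims2 (0.78) and Vasp (0.47) rose as well (limma adjusted p = 0.000722 and 0.0023). Ilk, the integrin-linked pseudokinase that binds beta tails, was at 419 ± 25.5 and 462 ± 33.0 TPM (SD, n = 4) and did not pass, like Bcar1 (-0.13) and Tns2 (-0.08).

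In the list of hemidesmosome and tetraspanin partners 3 of 11 tested genes rose (27.3%), 1 fell (9.09%) and 7 stayed short of the threshold (median 0.09). The shares over all tested genes were 13.1% higher and 14.2% lower. The linkers Plec and Dst, which tie Itgb4 to keratin, were at 33.6 ± 3.60 and 33.9 ± 1.16 TPM and at 35.8 ± 2.45 and 38.0 ± 5.59 TPM (SD, n = 4), with log2 fold changes of 0.02 and 0.08. Col17a1, the collagen of skin-type hemidesmosomes, had means of 0.217 and 0.448 TPM and was not tested. Among tetraspanins, which gather integrins in the membrane, Cd81 (0.44) and Cd63 (0.65) rose and Cd9 (-0.38) fell (limma adjusted p = 0.0005, 0.00446 and 0.00301), and Bsg (basigin) rose by 0.35 (limma adjusted p = 0.00314). The calls of Cd9 and Bsg ended with median-of-ratios scaling (adjusted p = 0.0573 and 0.11). Cd151, the closest tetraspanin partner of Itga3 and Itga6, was at 107 ± 4.09 and 93.4 ± 24.1 TPM (SD, n = 4), with AVP-flox;Cre 2 at 128 and the other 3 at 73.0 to 86.4 TPM. It did not pass (-0.23, limma adjusted p = 0.289) but did without AVP-flox;Cre 2 (-0.39, adjusted p = 0.01). Cd82 (0.15), Tspan8 (0.44) and Slc3a2 (0.09) did not pass.

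Genes of integrin uptake and recycling had 5 of 14 higher (35.7%), 2 lower (14.3%) and 7 not past, with a median of 0.20. The shares over all tested genes were 13.1% higher and 14.2% lower. Dab2, a clathrin adaptor that takes up integrins, rose 3.08-fold from 13.4, 14.3, 21.2 and 17.9 TPM to 37.9, 48.4, 60.5 and 58.9 TPM (log2 fold change 1.57, SE 0.18, limma adjusted p = 0.00025). Snx17, which keeps Itgb1 from the lysosome, rose from 69.8 ± 5.22 to 100.2 ± 6.14 TPM (SD, n = 4; limma adjusted p = 0.0011), its relative Snx31 rose by 0.90 and the recycling GTPase gene Rab11a by 0.31 (limma adjusted p = 0.0092 and 0.00488). The Rab11a call ended with median-of-ratios scaling (adjusted p = 0.0837). Arf6, a GTPase of integrin recycling, fell from 139, 158, 158 and 135 TPM to 104 TPM in AVP-flox;Cre 1 and 32.7, 66.9 and 19.8 TPM in AVP-flox;Cre 2 to 4 (-1.65, SE 0.41, limma adjusted p = 0.0149). The groups did not overlap, and AVP-flox;Cre 1 was the highest of its group. Its log2 fold change ran from -2.03 to -0.78 over the alternatives, all of them past the threshold, with the smallest change when AVP-flox 2, AVP-flox;Cre 2 and AVP-flox;Cre 4 were left out. Rab25 (0.04), Rab11fip1 (0.23) and Rabif (0.21) did not pass, though Rab11fip1 did in 5 of 24 alternatives and Rabif in 1.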

How the data were processed

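RNA of 8 libraries (4 AVP-flox, 4 AVP-flox;Cre) was sequenced by the submitters after SMART-Seq HT amplification from total RNA and Nextera XT tagmentation, per the labels' protocols, a route that does not mark strand, so overlapping genes cannot be separated. The submitters' processing notes list STAR and RSEM, while build and annotation were not given in the sources used here. The deposited values are TPM per gene, made by the authors. TPM keeps no read number, so depth is unknown and no counting interval is given. Columns named WT and KO were read as AVP-flox and AVP-flox;Cre by replicate number.

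Identifiers sharing a symbol were summed. Genes averaging at least 1 TPM were tested as log2(TPM + 1) with limma 3.58.1 (trend, R 4.3.3), two-sided, with Benjamini-Hochberg adjustment over 19043 genes. The script was tested on simulated data. Figures used matplotlib 3.10.9. GC content came from the longest GENCODE M21 transcript (87.4% of tested genes matched), and the correction subtracts a loess trend (span 0.3) of each library, leaving unmatched genes as they are. No gene set test was run. Named genes are the 10 members, other subunits of at least 1 TPM, up to 4 changed and 3 unchanged abundant genes per partner list and up to 2 per marker list; Lama3, Lama5, Npnt, Fn1, Ltbp1, Tgfb1, Itgb1bp1, Tln1, Ptk2, Cd151, Plec, Dst and Arf6 were added after their values were seen, as were Col17a1, Lum, Col1a1 and the platelet genes. The values of some list genes are not reported here. The members, lists and alternatives were chosen with earlier results of these data known.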

Additional observations from a re-analysis of the deposited data

Results flagged for a closer look

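In groups of 4, a library was picked out where its gap to the nearest other was too large a share of the group's range by Dixon's test at the 95% level, which chance passes in about 1 in 20 groups. Of 174 gene groups checked 9 passed. Itgb5 was picked out in AVP-flox;Cre, where library 1, at 186 TPM, stood above 29.5 to 49.1 TPM in the others (gap 0.875 of the range), and this was the only one of the 10 integrin genes so picked out. Itga8 was picked out in both groups, in AVP-flox 3 at 42.5 against 32.5 to 34.0 TPM (0.849) and in AVP-flox;Cre 4 at 76.9 against 49.3 to 52.6 TPM (0.882). AVP-flox 2 was high for both laminin genes Lamb3 (171 against 144 to 145 TPM, 0.971) and Lama5 (151 against 122 to 124 TPM, 0.929). Rabif was high in AVP-flox 1 (45.1 against 34.5 to 35.8 TPM, 0.873), and Ptk2 was high in AVP-flox;Cre 1 (64.6 against 52.2 to 53.8 TPM, 0.871). Kit was low in AVP-flox;Cre 2 (25.7 against 33.0 to 34.2 TPM, 0.859), and Col1a2 was low in AVP-flox;Cre 3 (59.7 against 70.2 to 71.4 TPM, 0.895).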

How the results depend on the processing

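Over 24 alternatives Itga5 (0.50 to 0.75) kept its call, and Itgb1 (-0.39 to -0.14), Itgb5 (-2.57 to -1.37) and Itga6 (0.32 to 0.57) kept their direction but not every call. The number of integrin genes that fell was 1 instead of 2 with the 5′ GC correction, with or without the replicate block, since Itgb1 no longer passed. With no filter 3409 genes passed instead of 5204, of which 1643 were lower instead of 2713, and 1 integrin gene rose instead of 2 (67580 genes are then tested). When AVP-flox 2 was left out with AVP-flox;Cre 2 and 4, 2560 genes passed (1378 higher and 1182 lower) and 2 integrin genes, 1 higher (Itga5) and 1 lower (Itgb1), with fewer samples. With each library left out in turn, 4006 to 4767 genes passed (2004 to 2529 higher, 1988 to 2436 lower), 3 to 4 integrin genes were called, of which 1 to 2 rose and 2 fell, and 3 to 6 had groups that did not overlap: without AVP-flox 1, Itga2, Itgb4 and Itgb5 joined, and without AVP-flox;Cre 1, Itgb5 and Itgb6. Itga3 changed sign without AVP-flox 2 (0.01) and without that library and AVP-flox;Cre 2 and 4 (0.10), Itgav with the 5′ GC correction, with or without the block (0.08), and Itgb8 with quantile normalization (-0.02), array weights (-0.04), without AVP-flox 2 (-0.07) and without the 3 libraries (-0.15), all uncalled throughout. The ratio of summed alpha levels between groups turned above 1 without AVP-flox 2 (1.02) or AVP-flox;Cre 2 (1.01), and the cause was not tested. For 77 other named genes, 1766 of 1838 values kept their side of the threshold, 51 lost it, 21 gained it and 0 of the called ones reversed. Gains were seen for Rab11fip1 (5), Col4a1 and Tspan8 (3 each), and Itga9, Rap1b and Cd151 (2 each). Fermt1, Egfl6, Rabif and Fn1 gained in 1 alternative each.

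Replicate numbers are shared by both groups, but same-numbered libraries did not deviate together (correlations of deviations across genes of 0.00102, 0.0154, 0.095 and 0.00415 for numbers 1 to 4), and of the 4 numbers only 3 had its own libraries correlate best with each other (0.095), while AVP-flox 1 and 4 did so with AVP-flox;Cre 2 and 1 (0.0495 and 0.0681), so the numbers were not taken as pairs. With the replicate block 4431 genes passed instead of 5204 and 5 integrin genes instead of 4, and Itgb5 was at -2.02 (limma adjusted p = 0.0322), Itgb1 at -0.35 (0.0138), Itga6 at 0.39 (0.0317) and Itga5 at 0.59 (0.00721), and of the 10 integrin genes Itgb6 alone changed side (0.0433).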
